A study of Arabidopsis thaliana with 4 samples.

Results

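AT1G73600 is an Arabidopsis thaliana gene on chromosome 1 that encodes a phosphoethanolamine N-methyltransferase. It was read by 1 probe set of the 22810 on the array, and it is 1 of the 13513 probe sets that the probe table assigns to a single gene. It was chosen because its signal was much lower in the mutant than in wild type, so its levels, ranks and differences are given here as a description, with no test.

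The samples were above-ground tissue of lwd1lwd2 double mutants (2 arrays) and of wild-type Arabidopsis (2 arrays), described as biological replicates. Both genes encode WD-repeat proteins of the circadian clock, and the series is titled as a study of photoperiod regulation. Both genotypes were 31 days old, were kept under a 12 h day and a 12 h night, and were sampled between 5 and 9 h into the light period. The labels give no allele, accession or number of plants per sample, and neither LWD1 nor LWD2 had a named probe set, so the genotype labels were not checked against the targeted genes.

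Phosphoethanolamine N-methyltransferases add methyl groups, taken from S-adenosylmethionine, to phosphoethanolamine and its methylated products, and so make phosphocholine. Phosphocholine is joined to diacylglycerol, by way of CDP-choline, to give phosphatidylcholine, a main phospholipid of membranes outside the plastid. In Arabidopsis this route supplies choline, and it is shared by a small family of methyltransferases that includes PMEAMT (AT1G48600). Each methyl transfer also leaves S-adenosylhomocysteine, which the methyl cycle returns to methionine.

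The values are linear signal intensities that had been scaled to the same trimmed mean on each array (500.05). The array medians were 181 and 176 in the mutant, against 163 and 162 in wild type. Over the tested probe sets, replicates correlated at r = 0.972 in each genotype, and arrays of different genotype at 0.932 to 0.947. As tissue checks, the 3 named leaf genes (RCA, PRK and SBPASE, of carbon fixation) had a summed signal of 44491 and 51863 in the mutant, against 59380 and 63974 in wild type. The 6 named root genes summed to 1031 and 1584 in the mutant, against 1148 and 1947 in wild type. Of the root genes, PYK10, a beta-glucosidase, gave most of the signal and was the 1 that passed the filter on dim probe sets. EMS1, a receptor kinase of anthers and the 1 named gene of the 25 in the flower and stem list, had 102 and 95.1 in the mutant, against 65.3 and 40.6 in wild type. EMS1 did not pass the filter on dim probe sets and was not tested, so nothing is read from its difference.

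AT1G73600 had a signal of 2471 and 2026 on the mutant arrays, against 10963 and 11815 on the wild-type arrays. Both mutant arrays were low, both wild-type arrays were high, and the genotypes did not overlap. In means, the signal was 2248 ± 315 in the mutant and 11389 ± 602 in wild type (SD, n = 2 each), a ratio of 5.07 for wild type over mutant. On the log2(intensity + 16) scale the means were 11.14 ± 0.20 in the mutant and 13.48 ± 0.08 in wild type, a difference of −2.34 (mutant minus wild type). No overlap by itself is common in these data. It was seen for 51.5% of the 13647 tested probe sets, and in the lower direction for 22.6%. A difference of at least 4-fold in the lower direction with no overlap was seen for 0.293%. Since the gene was picked on this contrast, nothing is read from these shares.

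The size of the difference was similar whichever arrays were paired. The wild-type signal was 4.44 and 4.78 times that of mutant replicate 1, for wild-type replicates 1 and 2. It was 5.41 and 5.83 times that of mutant replicate 2. Within a genotype, the higher array exceeded the lower by 1.22 times in the mutant and by 1.08 times in wild type. On the log2 scale the gap between replicate arrays was 0.28 in the mutant and 0.11 in wild type, against medians over tested probe sets of 0.21 in the mutant and 0.22 in wild type. The gap between the nearest arrays of the 2 genotypes was 2.14.

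The leaf genes were lower in the mutant as well, and their part in the AT1G73600 difference was not tested. Their log2 differences ran from −0.44 to −0.31, and none passed the test (limma; at an unadjusted p under 0.05, 2 of the 3, against 19.9% of all tested probe sets). In whole shoots, fewer cells of a type and less RNA per cell cannot be told apart. All samples came from 1 harvest window, so an altered daily timing of the transcript and an altered level cannot be told apart.

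**Figure D1:**
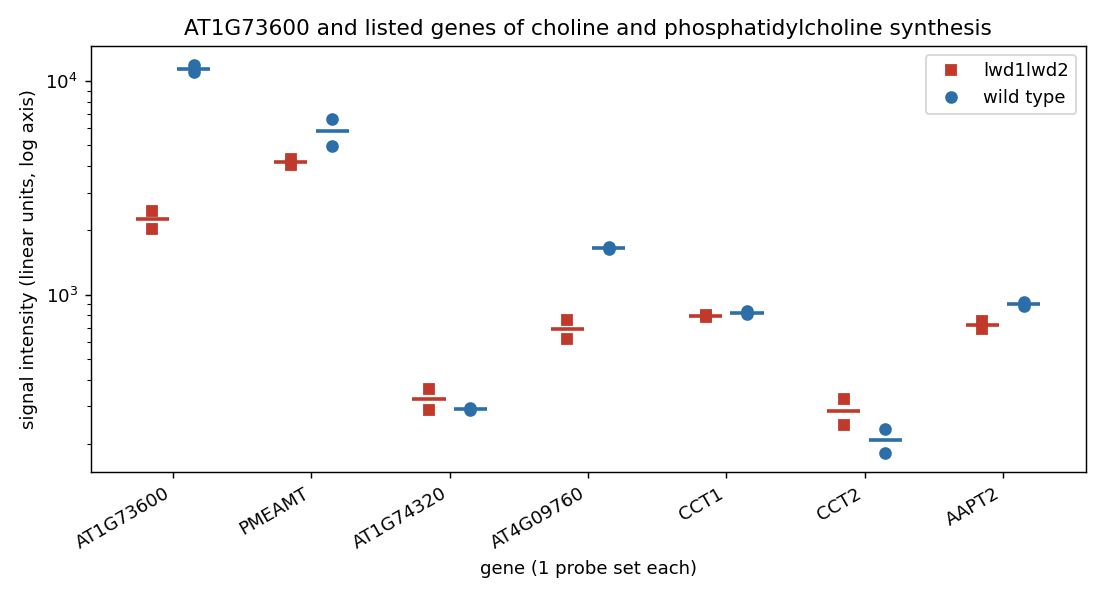
Signal intensity on each array (log axis) of AT1G73600 and of the 6 other named genes of the methyltransferase family and of choline and phosphatidylcholine synthesis; squares are lwd1lwd2 arrays, circles wild-type arrays and bars the means of 2. AT1G73600 stands at 2026 to 2471 in the mutant and 10963 to 11815 in wild type, and AT4G09760 at 620 to 762 in the mutant and 1631 to 1662 in wild type.

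By mean signal among 22746 probe sets, controls left out, AT1G73600 ranked 1522 in the mutant and 162 in wild type. The percentiles were 93.3 in the mutant and 99.3 in wild type, so it remained a bright probe set on the mutant arrays. On single arrays it ranked 1375 and 1710 in the mutant, against 177 and 159 in wild type. It stood at 13.7 and 11.5 times the array's median signal in the mutant, against 67.5 and 73.0 times in wild type. Probe sets differ in how well they bind, so a rank orders signals and not amounts of mRNA.

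The genes nearest to it in wild-type signal moved in rank both ways, by less than AT1G73600. AT1G73600 was chosen for its lower signal in the mutant and these genes were not, so nothing is read from that contrast. The 5 named genes next above AT1G73600 and the 5 next below lay at ranks 96 to 272 in the mutant and 143 to 171 in wild type. Their log2 differences ran from −0.44 to 0.31, and none of the 10 passed the test (limma; at an unadjusted p under 0.05, 1 of them, against 19.9% of all tested probe sets). They were psbA, psbE, clpP and rpl33 of the plastid genome, AT2G43030, AT3G49910 and AT3G60245 of ribosomal proteins, the dehydrin gene AT1G54410, AT5G62350 and AT4G23670. psbA, the D1 protein of photosystem II, had the lowest difference, with a signal of 9149 and 7728 in the mutant, against 13072 and 9990 in wild type. AT3G49910 had the highest, with 13876 and 14854 in the mutant, against 13705 and 9784 in wild type.

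**Figure D2:**
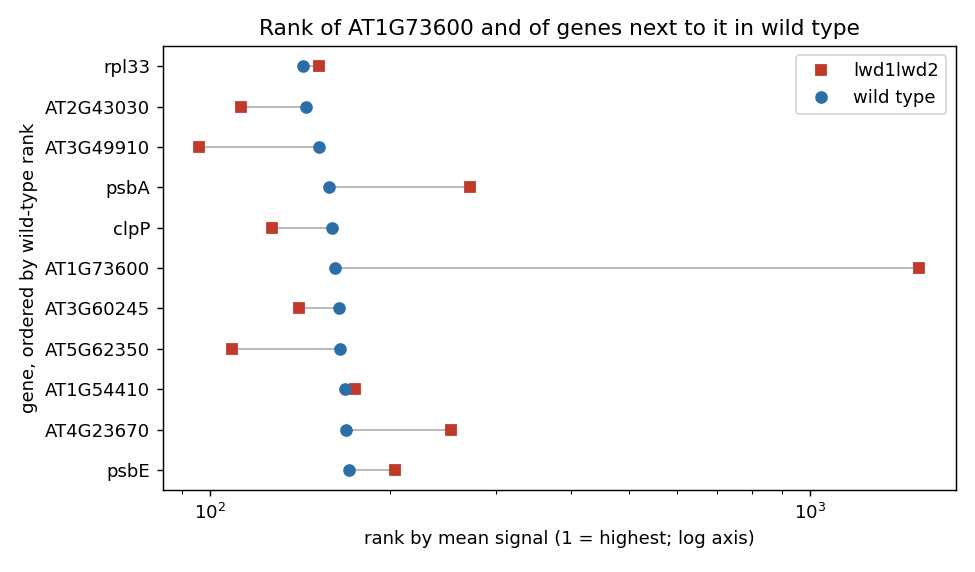
Rank by mean signal (1 is the highest, log axis) of AT1G73600 and of the 10 named genes next to it in wild-type signal; squares are lwd1lwd2 and circles wild type. The 10 neighbours lie at ranks 96 to 272 in the mutant, and AT1G73600 at 1522.

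In all, 161 other probe sets had a mean wild-type signal at or above that of AT1G73600. None of them ranked beyond 468 in the mutant, and none was lower by 4-fold or more. The lowest difference among them was −1.39 on the log2 scale, for AT2G41090, a calmodulin-like gene, with a signal of 8318 and 5141 in the mutant, against 19414 and 15226 in wild type. None of the 161 was 2-fold or more higher. Over all tested probe sets, 0.293% were lower by 4-fold or more with no overlap, so nothing is read from their absence among 161. Of the 161, 7 passed the test as lower and 0 as higher (limma), against 2.84% lower and 2.73% higher of all tested probe sets. Lower with no overlap were 77 of the 161, against 22.6% of all tested probe sets.

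In a wider band, 484 other probe sets had a mean wild-type signal within 2-fold of that of AT1G73600. Their median log2 difference was −0.12. Of these, 11 were lower by 2-fold or more, 2 of them by 4-fold or more, and 2 were higher by 2-fold or more. The share of the 484 that passed the test was 7.02% (limma), against 5.57% of all tested probe sets. The largest fall in the band was that of AT1G62510, a gene of a lipid-transfer-like protein, with 675 and 1228 in the mutant, against 7776 and 11496 in wild type. The other fall of 4-fold or more belonged to a probe set with no gene in the probe table. Among all 13647 tested probe sets the difference of AT1G73600 was the 18th lowest, and among the 7369 with a single gene it was the 6th lowest.

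**Figure D3:**
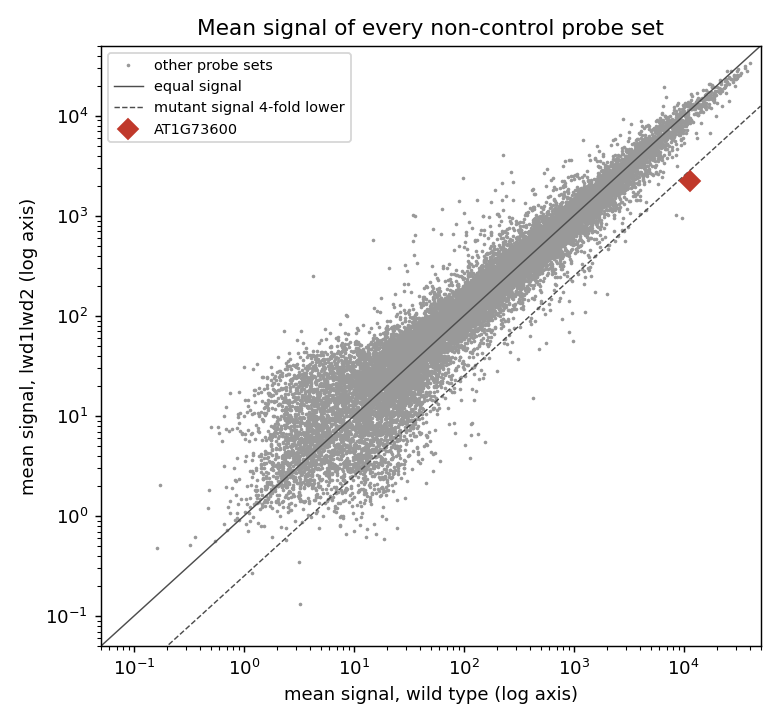
Mean signal in lwd1lwd2 (vertical, log axis) against mean signal in wild type (horizontal, log axis) for the 22746 probe sets that are not controls; the solid line marks equal signal and the dashed line a mutant signal 4-fold lower. AT1G73600, the diamond at 2248 in the mutant and 11389 in wild type, lies under the dashed line at the bright end.

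The question for the other genes of the pathway was whether they differed too. Lists of genes around phosphocholine, methyl transfer and lipids gave 83 named genes other than AT1G73600, of which 55 were bright enough to test. Of the 83, 25 came from lists written before the probe table was seen and 58 from lists added after it. Most genes of the earlier lists had no named probe set, so the pathways are covered in part only. Of the 55, 3 fell and none rose (limma, adjusted p below 0.05 over all tested probe sets), or 5.45%. Over all tested probe sets 5.57% passed (2.84% lower, 2.73% higher), so the share in the lists was near that of all probe sets. The median log2 difference was −0.08 over the 55 and 0.05 over all tested probe sets. At an unadjusted p under 0.05, 6 of the 55 were lower and 1 higher, against 8.79% lower and 11.1% higher of all tested probe sets. The calls over all tested probe sets split into 372 higher and 388 lower in the values as deposited, and into 257 higher and 571 lower with each array centred on its median.

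PMEAMT, the other named methyltransferase of the family, did not pass. Its signal was 4018 and 4312 in the mutant, against 4953 and 6660 in wild type. Both mutant arrays lay below both wild-type arrays, with a log2 difference of −0.46 ± 0.19 (SE, adjusted p = 0.196, limma). Its difference was −0.25 without wild-type replicate 2 and −0.68 without wild-type replicate 1. The difference between the responses of PMEAMT and AT1G73600 was not tested, since AT1G73600 was chosen on its response. The family's other member in the list, AT3G18000, was not analysed here.

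In the list of choline and phosphatidylcholine synthesis, 5 of the 16 listed genes had a named probe set. All 5 were tested and 1 fell, against 2.84% lower of all tested probe sets, a count too small to read. It was AT4G09760, a gene of the choline kinase family, whose enzymes phosphorylate free choline to phosphocholine. AT4G09760 had 762 and 620 in the mutant, against 1631 and 1662 in wild type. Both mutant arrays lay well under both wild-type arrays, with a log2 difference of −1.24 ± 0.19 (SE, adjusted p = 0.0035, limma), and this call held in each of the 12 alternatives. AT1G74320, of the same kinase family, had 360 and 288 in the mutant, against 295 and 290 in wild type, and the genotypes overlapped.

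The named genes of the later steps of the CDP-choline route did not pass. CCT1, the enzyme that makes CDP-choline from phosphocholine, had 803 and 786 in the mutant, against 839 and 810 in wild type, a log2 difference of −0.05 ± 0.18 (SE). CCT2, its relative, had 326 and 246 in the mutant, against 182 and 235 in wild type, a log2 difference of 0.42 ± 0.24. The CCT2 difference was 0.23 without mutant replicate 1 and 0.25 without wild-type replicate 1. AAPT2, an aminoalcohol phosphotransferase that forms phosphatidylcholine from CDP-choline, had 692 and 749 in the mutant, against 882 and 921 in wild type. The AAPT2 difference was −0.32 ± 0.18 (SE, adjusted p = 0.37, limma). The genotypes did not overlap for 4 of the 5 genes of this list, against 51.5% of tested probe sets.

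Genes that supply or use methyl groups gave 1 call among 6 tested, against 5.57% of all tested probe sets. With so few genes, nothing is read from this count. Of the methyl cycle, the methyltransferases HMT-1 and MMT, which act on homocysteine and methionine, and CBL, a lyase of methionine synthesis, did not pass. Their log2 differences were 0.58 ± 0.27, 0.10 ± 0.22 and −0.11 ± 0.18 (SE). AT5G15950, of S-adenosylmethionine decarboxylase, which diverts the methyl donor into polyamines, fell to 490 and 478 in the mutant, against 941 and 1254 in wild type. Its log2 difference was −1.14 ± 0.20 (SE, adjusted p = 0.0089, limma). Of the same family, SAMDC (AT3G02470) had 8272 and 6257 in the mutant, against 8924 and 11383 in wild type (log2 difference −0.49 ± 0.20, SE; adjusted p = 0.194, limma), and AT3G25570 overlapped between the genotypes.

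Other methyltransferases that use S-adenosylmethionine gave 1 call among 28 tested, or 3.57%, against 5.57% of all tested probe sets. AT3G56080, of the QUASIMODO-like family of putative cell wall methyltransferases, had 182 and 195 in the mutant, against 399 and 451 in wild type. Its log2 difference was −1.11 ± 0.21 (SE, adjusted p = 0.013, limma), and the call ended without the filter on dim probe sets (adjusted p = 0.0687) and without wild-type replicate 2 (adjusted p = 0.06; 0.0072 to 0.0687 over all alternatives). The other 19 tested members of that family had differences between −0.44 and 0.69. Among the rest, CHLM, the methyltransferase of chlorophyll synthesis, had 6680 and 8341 in the mutant, against 8011 and 6083 in wild type, and the genotypes overlapped. JMT, which methylates jasmonic acid, had a log2 difference of −0.25 ± 0.27 (SE) and did not pass.

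No tested gene of the remaining lipid lists passed (limma; at an unadjusted p under 0.05, 0 of 15, against 19.9% of all tested probe sets). The 5 tested phospholipid flippases, which move lipids across membranes, had log2 differences between −0.36 and 0.35. The 5 genes of choline oxidation and lysophospholipid acylation ran from −0.32 to 0.34. FATB and FaTA, acyl carrier protein thioesterases that release fatty acids in the plastid, had differences of 0.14 ± 0.20 and 0.02 ± 0.24 (SE). The 4 tested genes of fatty acid synthesis all overlapped between the genotypes, as did LCB2 of sphingolipid synthesis, at −0.005 ± 0.18. The lists of plastid glycerolipids and of phosphate starvation had no named gene and were not analysed here, and the 1 named gene each of other phospholipid synthesis and of phospholipases did not pass the filter.

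**Figure D4:**
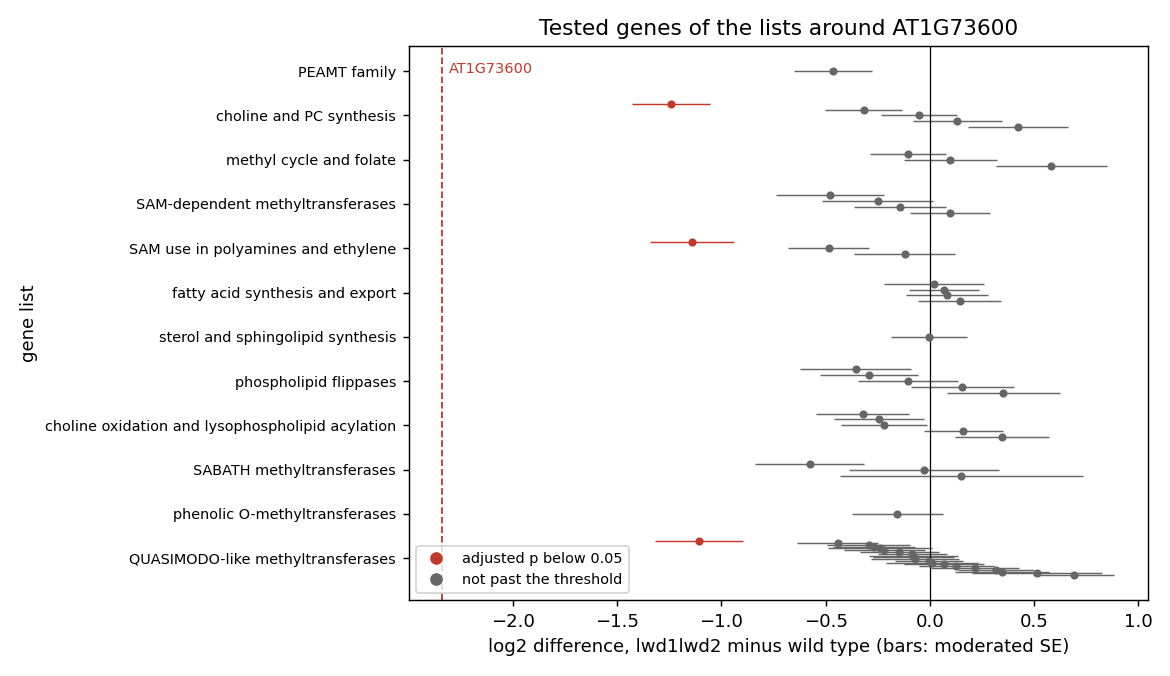
Log2 difference (lwd1lwd2 minus wild type) of the 55 tested genes of the lists, with bars of 1 moderated SE, by list; red points have an adjusted p below 0.05 and the dashed line marks AT1G73600 at −2.34. The 3 red points lie between −1.24 and −1.11, and the others between −0.58 and 0.69.

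The genes with the profile most like that of AT1G73600 were sought by the Euclidean distance between log2 profiles over the 4 arrays, each profile taken relative to its own mean. A flat profile would lie at a distance of 2.35. The 8 nearest of the 7368 other tested probe sets with a single gene lay at 0.26 to 0.54. Among all 13646 other tested probe sets, only 2 of the 10 nearest had a single gene. Probe sets without a single gene are left out here, so most of the closest profiles are not described. With 4 arrays in 2 genotypes, the distance mostly measures the size of the fall, so the list is a description and was not tested.

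AT5G59305 was the nearest, with 55.3 and 32.2 in the mutant, against 233 and 290 in wild type. SAG29, a senescence-associated sugar transporter of the SWEET family, had 62.7 and 46.4 in the mutant, against 230 and 320 in wild type. AT5G54130 had 158 and 147 in the mutant, against 600 and 908 in wild type. In the mutant, AT5G59305, SAG29 and SWEET13, which is described next, lay under the filter’s signal of about 91.5, so their folds depend on the offset.

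AT1G57590 had 254 and 269 in the mutant, against 1040 and 1134 in wild type. SWEET13, a sucrose transporter, had 87.7 and 88.5 in the mutant, against 346 and 449 in wild type. AT3G51750 had 156 and 80.5 in the mutant, against 464 and 588 in wild type. Of these, AT3G51750 shared with AT1G73600 a lower value in mutant replicate 2 than in replicate 1, and AT1G57590 had the tightest wild-type arrays. The lower value in mutant replicate 2 was also seen for AT5G59305, SAG29, AT5G54130 and AT5G35970, which is described next.

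AT5G35970 had 1097 and 1016 in the mutant, against 3329 and 4685 in wild type. AT1G64500, of a glutaredoxin-like protein, had 304 and 373 in the mutant, against 1243 and 1677 in wild type. All 8 were lower on both mutant arrays than on both wild-type arrays, by 3.70-fold to 4.70-fold on the log2(intensity + 16) scale. In rank they lay at 3267 to 16233 in the mutant and 814 to 9295 in wild type, so none had the wild-type rank of AT1G73600.

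**Figure D5:**
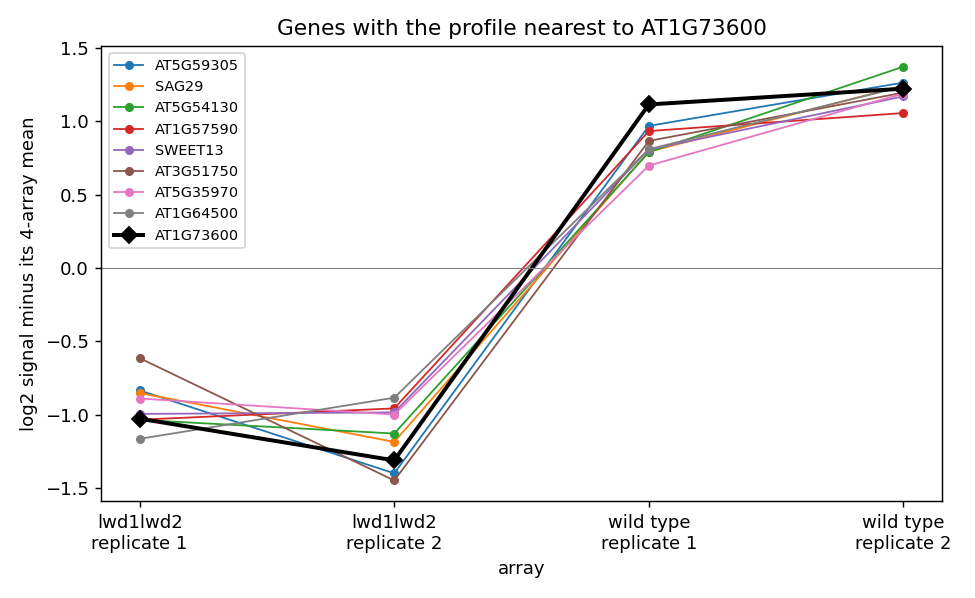
Log2 signal minus its own 4-array mean on each array for AT1G73600 (black) and the 8 named genes with the nearest profile; the arrays are lwd1lwd2 replicates 1 and 2, then wild-type replicates 1 and 2. All 9 lines lie under 0 on the mutant arrays and above 0 on the wild-type arrays.

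The nearest genes with a named probe set on either side of AT1G73600 on the chromosome, in the order of the TAIR10.1 annotation, were 6, of which 2 were bright enough to test and neither passed. None of the 6 adjoins AT1G73600: 4 to 8 annotated genes lay between on one side and 2 to 4 on the other. On one side AT1G73530, of an RNA-binding protein, had 1050 and 1222 in the mutant, against 1212 and 1170 in wild type, and the genotypes overlapped. AT1G73560 and AT1G73570 on that side, and AT1G73610 and AT1G73620 on the other, were too dim to be tested, with signals of at most 119 on any array. AT1G73630, of a calmodulin-like protein, had 600 and 640 in the mutant, against 915 and 1078 in wild type, so both mutant arrays lay below both wild-type arrays. Its log2 difference was −0.67 ± 0.19 (SE) and did not pass (adjusted p = 0.0703, limma).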

How the data were processed

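Total RNA (10 µg per sample, extracted with a pine tree protocol) was converted to cDNA, labelled with biotin by in vitro transcription and hybridised to Affymetrix arrays, per the labels' protocols. The authors deposited 1 linear signal intensity per probe set and array; the software and its settings are not given in the sources used here. After removal of 2% at each end the mean was 500.05 on all 4 arrays, so the scaling cannot show a change in total mRNA. The number of arrays limits the precision, and p-values measure only the spread between these samples.

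Values were analysed as log2(intensity + 16), which understates changes of dim genes, as deposited, since the array medians differed by less than 0.3. Tests left out the 64 controls and the dimmest 40% by mean over the 4 arrays, leaving 13647 above a signal of about 91.5. A gene dim in one genotype entered the tests only through a higher signal in the other. Differences are mutant minus wild type, tested with limma 3.58.1 in R 4.3.3 (genotype only, eBayes with an intensity trend, two-sided, Benjamini-Hochberg, threshold 0.05), with 2 residual degrees of freedom and moderated SE. The procedure was tested on simulated data with a spread of similar size. That spread was pulled towards its mean and shuffled over probe sets, so its link to signal was lost. The shares recovered are therefore not those of bright or of dim genes taken alone. The procedure recovered 27% of 100 simulated log2 changes of 1 and 100% of 100 changes of 2, with 9 calls among unchanged probe sets. A gene that did not pass may therefore still differ. Figures used matplotlib 3.10.9.

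Gene names came from the probe table, brought up to date with TAIR10.1 identifiers: 13436 of the 13513 probe sets with 1 gene were matched, 503 had several genes and 8730 were unnamed. Close paralogs may contribute to a probe set’s signal. Roles of genes listed only by locus are general knowledge of Arabidopsis. Of the 14 lists with members reported, 9 were written before the probe table was seen and 5 (flippases, choline oxidation and lysophospholipid acylation, and 3 methyltransferase families) after it; all were chosen with earlier results of these data known, as was AT1G73600. The genes named were AT1G73600, its family, up to 4 called members of each list and the 2 largest differences of the choline list, the 8 nearest profiles, 5 neighbours in wild-type signal and 3 on the chromosome on each side. Other list members and AT2G41090 and AT1G62510 were named after their values were seen. No sequence is shown.

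Alternatives were an offset of 1 or 64, quantile normalization, centring on medians, no filter or one at the 60th percentile, a robust variance prior, the replicate number as a block, and leaving out each array.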

Additional observations from a re-analysis of the deposited data

How the results depend on the processing

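The log2 difference of AT1G73600 lay between −2.48 and −2.20 over 11 alternatives. Of these, the changes of filter and the replicate block could not alter it. Its rank in the mutant lay between 1375 and 1710, and in wild type between 159 and 177, with both extremes when 1 array was left out. Those extremes are the ranks on single arrays given above, since 1 array of the genotype then remains, and are no separate check. With quantile normalization and with centring on medians, the rank was 1528 and 1524 in the mutant, and 160 and 162 in wild type. The calls of AT4G09760 and AT5G15950 held in all 12 alternatives (adjusted p at most 0.0219 and 0.0438, limma), and PMEAMT passed in none (0.0714 to 0.647). With an array left out or another offset, the directions for these genes were fixed in advance, since their genotypes do not overlap. Listed genes that fell numbered 2 or 3. Listed genes that rose numbered 0, except without wild-type replicate 1, when AT5G37970 of the SABATH methyltransferases passed (log2 difference 1.31, adjusted p = 0.0392, limma) and the count was 1. Over all tested probe sets, 114 were higher and 144 lower without the filter, when 22746 were tested, and 290 to 607 were higher with 1 array left out (607 without wild-type replicate 1); the cause was not tested. Same-numbered arrays are not stated to be paired, and their deviations correlated at 0.09 over tested probe sets. With the replicate number as a block, 324 were higher and 352 lower, and 3 listed genes fell. The number of arrays, 2 per genotype, limits what could be detected.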
